A study of Homo sapiens with 8 samples.

Results

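Tandem acceptors are pairs of 3′ splice sites that lie 3 nucleotides apart at the start of the same exon. They were taken from the authors' tables of local splicing variations (LSVs, sets of junctions that leave or enter the same exon) as every LSV of 2 junctions that is an alternative 3′ splice site only, without exon skipping or a retained intron, and whose 2 junctions share their donor and end 3 nucleotides apart. The table of PMA-treated cells held 405 of them among 91729 LSVs and the table of unstimulated cells 400 among 91480, in all 427 tandem acceptors in 404 genes, of which 378 were in both tables. Of the two-choice alternative acceptors of any distance they made up 15.9% with PMA and 15.8% without, where a distance of 2 nucleotides had 1.84% and 1.85% and a distance of 4 had 7.49% and 7.5%.

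The RNA was polyadenylated RNA of JSL1, which is a single clone of the human T lymphocyte line Jurkat. There were 4 groups of 2 libraries: CELF2-depleted and control cells treated with 20 ng/mL of the phorbol ester PMA for 48 hours, and CELF2-depleted and control cells without stimulation. Depletion came from lentivirally integrated short hairpin RNAs that are induced by doxycycline. The sources used here do not say whether the control cells carried a hairpin or received doxycycline. Expression values are not among the columns, so neither the level of CELF2, the target of the hairpins, nor the levels of cell type markers could be checked. Of 10 T lymphocyte genes 8 had an LSV in each table, against 1 of 5 B cell genes (CD79A) and 0 of 5 myeloid genes.

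The spliceosome cuts an intron's 3′ end after an AG dinucleotide. Where 2 such triplets stand next to each other, cutting at the upstream one leaves the 3 bases of the downstream one in the messenger RNA, and cutting at the downstream one removes them. The reading frame is kept either way, so a coding exon gains or loses a single codon's length. The base before the AG is known to matter for how well an acceptor is used, and a G there is known to be disfavoured. CELF2 is an RNA-binding protein that regulates alternative splicing in T cells.

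The value followed here is the share of the shorter junction, the one that ends at the upstream acceptor and so gives the longer exon. The authors estimated 1 share for each group from its 2 libraries together and gave no read depth, so no spread between libraries can be stated. No share of a tandem acceptor lay below 2.5% or above 97.5%. Many events stood at exactly these values, so a share there does not by itself show that the less used acceptor was used at all. The error enters only through the probability, under the authors' model, that a share differs by 20 points or more between depleted and control cells. An event was called where this posterior probability reached 0.95. The authors' expected change, in points of the share, comes from their model and can differ from the plain difference of shares.

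The sequences of both acceptors could be read for 43 of the 427 events, because a GENCODE transcript of the same gene runs unspliced across the site. In 42 of the 43 both triplets ended in AG. The exception was MT1F, a metallothionein gene, with TCG at the upstream acceptor and a share of 2.5% to 2.8% in the 4 groups. The following 30 bases from GRCh38 run from 12 intronic bases through both acceptor triplets, in capitals, into the exon. They are shown because use differed between sets of triplets, with exceptions. In the first set the upstream triplet is GAG or AAG and the downstream one is CAG:
MYL6, GRCh38 chr12:56158666-56158695, plus strand: tccctcttctctGAGCAGtgtgacttcacc
RABL6, GRCh38 chr9:136832247-136832276, plus strand: tttcctttctgaAAGCAGacctccaggttc
MAP7D1, GRCh38 chr1:36179497-36179526, plus strand: tcttcctcttcaAAGCAGaagcaggacagc
TSC1, GRCh38 chr9:132910678-132910707, minus strand: gcccttgtctctAAGCAGgtggaaaaggaa

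In the second set the order is turned round, with CAG or TAG upstream and GAG or AAG downstream:
CTNNB1, GRCh38 chr3:41235709-41235738, plus strand: tgtttcttttggCAGGAGggggtccgcatg
CCNC, GRCh38 chr6:99549561-99549590, minus strand: tttacatttctaTAGGAGgatagtgaatga
TRA2A, GRCh38 chr7:23505799-23505828, minus strand: tttcatttcttaCAGAAGacgatcaccttc
AP2A2, GRCh38 chr11:985417-985446, plus strand: ttctgtcttgccCAGAAGaccctgcagtgc

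In the third set both triplets are CAG or TAG:
EIF4A2, GRCh38 chr3:186784414-186784443, plus strand: cagtattcttgtCAGCAGagaacatggcgg
PROSER3, GRCh38 chr19:35762238-35762267, plus strand: actggggcttctCAGCAGgagccaacaaac
SREK1, GRCh38 chr5:66177499-66177528, plus strand: tcaatattcttaTAGCAGaaataagaagga
VASP, GRCh38 chr19:45523826-45523855, plus strand: tttatttcctacCAGCAGgaggagccagag
EML2, GRCh38 chr19:45641734-45641763, minus strand: tgtgctctctttTAGCAGtgtccgccgcta
AAK1, GRCh38 chr2:69509449-69509478, minus strand: cgtctctcttccTAGCAGattcaagcccca

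Where AAG or GAG stood upstream of CAG, the upstream acceptor was little used. The 7 such events in both tables had a median share of 5.4% (mean over the 4 groups for each event), and 5 of them were at 10% or below. MYL6, a myosin light chain and the 1 event with GAG upstream of CAG, stood at 2.5% in all 4 groups, as did RABL6, a small GTPase-like protein. MAP7D1, a microtubule-associated protein, had 7.4% in PMA-treated depleted cells, 2.9% in PMA-treated control cells, 7.6% in unstimulated depleted cells and 3.2% in unstimulated control cells. TSC1, a subunit of the complex that restrains mTOR signalling, went against the rest of its set with 64.9%, 70.8%, 70.2% and 62.0% in the same order, and ZNF181, a zinc finger gene, lay between 28.2% and 44.2%.

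Where CAG or TAG stood upstream of AAG or GAG, the upstream acceptor carried nearly all of the junction use in most events. The 16 events in both tables had a median share of 97.3%, and 13 were at 90% or above. CTNNB1 (beta-catenin) and CCNC (cyclin C) were at 97.5% in all 4 groups, and TRA2A, a splicing activator, lay between 96.6% and 97.5%. All 6 events with GAG downstream, among them the microRNA processing gene DGCR8 and an event of FUBP1 with AAG upstream, lay between 97.3% and 97.5% in every group. The 3 events below 90% had AAG downstream. NUCKS1, a nuclear phosphoprotein, lay between 78.4% and 82.8%. AP2A2, a subunit of the clathrin adaptor AP-2, had 28.7% in PMA-treated depleted cells, 26.4% in PMA-treated control cells, 28.6% in unstimulated depleted cells and 24.9% in unstimulated control cells. NCAM1, a neural cell adhesion molecule, had 12.7%, 14.8%, 19.3% and 10.4% in that order. AKTIP, with TAG upstream of AAG, was in the PMA table alone and is not among the 16, with 48.1% in depleted and 76.3% in control cells. Only the downstream acceptor of NCAM1 is annotated in GENCODE, while AP2A2 and AKTIP have both. Several of the 16, among them DGCR8 and NUCKS1, have only the upstream one annotated. In the set with AAG or GAG upstream of CAG, MYL6, RABL6, MAP7D1 and TSC1 have both and ZNF583 only the downstream one. Sequence and annotation thus differ together between these sets and cannot be told apart here.

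Where both triplets were CAG or TAG, shares covered most of the scale. The 13 events in both tables ran from 11.8% to 97.5% with a median of 78.2%, and 8 lay between 10% and 90%. EIF4A2, a translation initiation helicase with CAG at both acceptors, had 20.4%, 17.9%, 23.7% and 18.7% in PMA-treated depleted, PMA-treated control, unstimulated depleted and unstimulated control cells. VASP, an actin elongation factor with the same letters at its acceptors, had 86.9%, 86.4%, 85.9% and 92.3%. These events share the 6 letters of their acceptors and differ in use by more than 60 points in every group. In GENCODE both acceptors of EIF4A2 are annotated, but only the upstream one of VASP. Over matched events in both tables the median share was 61.1% with both acceptors annotated. It was 95.1% with the upstream one alone and 8.5% with the downstream one alone.

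The downstream triplet alone could be read in 377 events whose upstream acceptor is annotated in GENCODE, since it forms the first 3 bases of the longer exon. It ended in AG in 375. The exceptions were KCMF1, with GAT and 97.5% in all 4 groups, and TTC26, with ATG and 97.5% in both groups of the table that listed it. Of the 375, CAG made up 57.6%, AAG 27.5%, TAG 8.53% and GAG 6.4%. As a background, exon starts within the coding part of 1 transcript per gene were taken for the 10403 genes that had one. Of the 5645 that begin with such a triplet, GAG made up 67.1%, AAG 19.5%, CAG 11.6% and TAG 1.84%. The 375 triplets came from any annotated transcript that uses the upstream acceptor, coding or not, so the 2 sets were not drawn alike. These percentages describe the annotation and the authors' listing, and no test was made between them.

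The median share of the shorter junction also differed between the triplets. It was 97.5% with GAG downstream (21 events in both tables), 96.6% with AAG (95 events), 79.2% with TAG (25 events) and 72.0% with CAG (192 events). An annotated upstream acceptor is itself more likely where that acceptor is used, and with both acceptors annotated the medians were 97.5%, 91.7%, 61.0% and 48.1%, in the same order. With GAG, 1 of 21 events lay below 90%, UCHL5, a deubiquitinase of the proteasome, at a mean of 46.6%. With CAG, 125 of 192 lay between 10% and 90%.

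Most of the inserted or omitted triplets lay in coding sequence, 391 of the 410 events that matched a GENCODE intron (95.4%). The reading frame could be placed for 387 events. The triplet entered after the first base of a codon in 43.7%, between codons in 39.8% and after the second base in 16.5%, where all 110670 exon starts of the background transcripts had 30.1%, 47.4% and 22.5%. The 5645 exon starts whose first 3 bases end in AG had 32.2%, 52.9% and 14.8%. The tandem acceptors were above both backgrounds after the first base and below both between codons, and lay between them after the second base. A TAG triplet lay between codons, where it is itself a stop codon, in 1 event. It lay after the first base of a codon in 17 events and after the second in 9. Triplets were read only where the upstream acceptor is annotated, and frames came from annotated transcripts, with coding ones taken first. These counts therefore depend on the annotation, and no background by position was made for TAG. The 1 event between codons was in MKLN1 (muskelin, a subunit of a ubiquitin ligase). It was also the 1 event of 354 in which the longer isoform alone carried a stop codon at the splice. Its spliced sequence in GENCODE, with the optional triplet in capitals after 15 bases of the upstream exon, shows TAG in frame:
MKLN1: aactggtatagcaagTAGtaccgtgaacag
The stop-containing MKLN1 isoform had a share of 8.4% in PMA-treated depleted cells and 7.6% in PMA-treated control cells, against 2.6% in unstimulated depleted and 2.5% in unstimulated control cells. All 4 values were low, and the unstimulated ones lay at or next to 2.5%, the lowest share of any tandem acceptor. The event was chosen after its values were seen, and the difference between states was not tested.

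In each group the upstream acceptor was the more used one in most events. The median share was 82.9% in PMA-treated depleted cells and 82.0% in PMA-treated control cells, and 83.4% in each unstimulated group. Shares above 50% were found in 285, 283, 294 and 279 events in PMA-treated depleted, PMA-treated control, unstimulated depleted and unstimulated control cells. Of the 378 events in both tables, 261 were above 50% in all 4 groups, 92 were below it in all 4 and 25 crossed it. In 140 the share was at least 90% in every group, in 29 at most 10%, and in 18 it lay between 40% and 60% throughout. At the limits of the scale, 51 events stood at 97.5% in all 4 groups and 11 at 2.5%.

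Intermediate use was frequent. Averaged over the 4 groups, 178 of 378 tandem acceptors (47.1%) had a share between 10% and 90%, against 205 of 2051 (10%) of the two-choice acceptors another distance apart. At most 10% was found in 9.79% of tandem acceptors and 34.8% of the others, and at least 90% in 43.1% and 55.2%. These are counts within 1 cell line and were not tested.

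**Figure D1:**
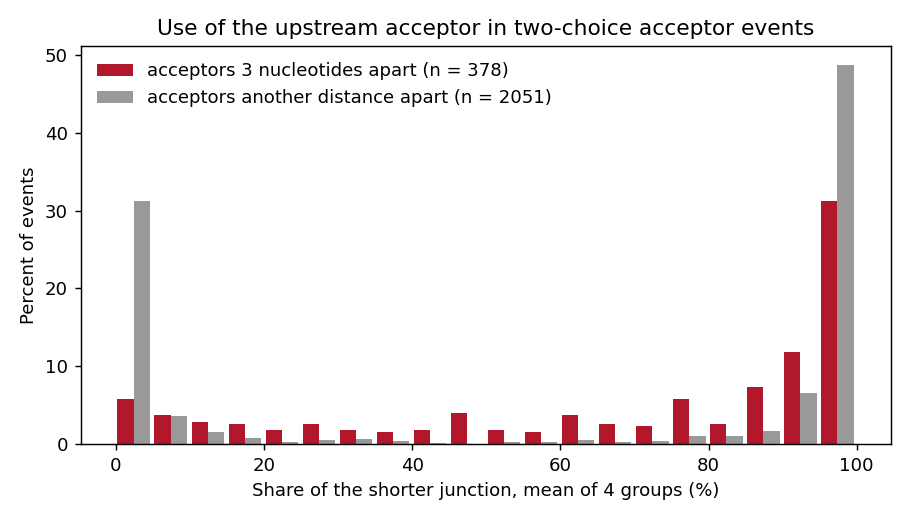
Distribution of the share of the shorter junction, averaged over the 4 groups (x axis, percent, bins of 5 points), as percent of events (y axis), for the 378 tandem acceptors (red) and 2051 two-choice acceptors another distance apart (grey) in both tables. The grey bars are concentrated at the ends of the scale, and 47.1% of tandem acceptors but 10% of the others lie between 10% and 90%.

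At least 1 junction absent from the authors' annotation, termed de novo in their tables, was present in 224 of the 427 events (52.5%). These had a median share of 93.6%, against 60% in the events whose junctions were all annotated. In 21 genes there was more than 1 tandem acceptor, and the events of a gene could stand far apart. In TRRAP, a scaffold of histone acetyltransferase complexes, 1 event stood at 97.5% and another at 2.5% in all 4 groups. In BRD7, a bromodomain protein of chromatin remodelling complexes, 2 events with AAG downstream were at 97.5% in all 4 groups. The third BRD7 event, with CAG downstream, had 24.9% in PMA-treated depleted cells, 16.3% in PMA-treated control cells, 27% in unstimulated depleted and 19.1% in unstimulated control cells. OSBP2, an oxysterol-binding protein, had 2 events with CAG downstream, at 91.2% to 95.5% and at 2.7% to 5.1%.

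The comparison of CELF2-depleted with control cells asked which tandem acceptors respond to the loss of CELF2. With PMA 0 of 405 tandem acceptors were called, where 1.87% of all LSVs, 1.13% of LSVs of 2 junctions and 0.186% of two-choice acceptors of other distances were called. In unstimulated cells 1 of 400 was called (0.25%), where 0.985% of all LSVs, 0.594% of LSVs of 2 junctions and 0 of 2134 two-choice acceptors of other distances were called. No test per library can be made from pooled values, so an unadjusted p-value and a second tool could not be given beside the count of 0. The highest posterior probability with PMA was 0.88 in the authors' deposited table. By an expected change of at least 10 points, 11 tandem acceptors passed with PMA (2.72%, against 9.33% of all LSVs and 2.1% of two-choice acceptors of other distances) and 6 without PMA (1.5%, against 6.29% and 0.984%). Of LSVs of 2 junctions 5.63% passed 10 points with PMA and 3.62% without it. An expected change of at least 20 points was given for 3 tandem acceptors with PMA (0.741%), where 3.84% of all LSVs, 2.33% of LSVs of 2 junctions and 0.792% of two-choice acceptors of other distances had one. Without PMA it was given for 2 (0.5%), where the percentages were 2.4%, 1.43% and 0.422%.

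The called event lay in EML2, a microtubule-binding protein of the echinoderm microtubule-associated protein-like family, at positions 46145003 and 46145006 of chromosome 19 (hg19, minus strand), within the coding region. The share of its upstream acceptor was 47.2% in unstimulated depleted cells and 82.8% in unstimulated control cells. It fell by 36.20 points in expected change, and the authors' deposited table gave it a posterior probability of 0.967. Its acceptors are TAG and CAG, as printed above. EML2 was not listed as a tandem acceptor in the PMA table, so the change could not be compared between states.

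The other expected changes without PMA did not reach the threshold. AAK1, a kinase of the clathrin adaptor AP-2 with the acceptors TAG and CAG printed above, had 43.4% in depleted and 17.2% in control cells, and the authors' deposited table gave a probability of 0.694. Its event lies at positions 69736592 and 69736595 of chromosome 2 (hg19, minus strand).

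EXOC6, a subunit of the exocyst, had 71.5% in unstimulated depleted and 89.4% in unstimulated control cells. ZC3H13, a component of the RNA methylation machinery, had 55.6% and 39.9%, and EIF2B4, a subunit of the translation factor eIF2B, had 60.4% and 47.3%. PROSER3, with CAG at both acceptors, had 59.1% in unstimulated depleted and 42.4% in unstimulated control cells. For these 4 genes the posterior probability in the authors' deposited table lay between 0.194 and 0.443. USP48, a deubiquitinase, had 72.4% in unstimulated depleted and 59.6% in unstimulated control cells, and PRRC2B had 35.6% and 24.5%. The posterior probabilities in the authors' deposited table were 0.153 for USP48 and 0.0747 for PRRC2B.

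With PMA the 3 largest expected changes were in events that only the PMA table listed. ZNF555, a zinc finger gene, had 87.5% in depleted and 54.1% in control cells, with an expected change of 31.81 points and a posterior probability, in the authors' deposited table, of 0.88. AKTIP, which binds the kinase AKT and has TAG upstream of AAG, had 48.1% and 76.3%, and its probability in the authors' deposited table was 0.788. HSPG2 (perlecan, a proteoglycan of basement membranes) had 5.6% in depleted and 32.9% in control cells, and 0.8 in the authors' deposited table. LRRC75A-AS1, an antisense RNA gene, had 35.0% in PMA-treated depleted cells and 14.6% in PMA-treated control cells, and 32.8% and 21.5% in unstimulated depleted and control cells. Strand-specific libraries were made, but the sources used here do not say how reads were assigned to overlapping genes.

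The other large expected changes with PMA were in MDC1, a mediator of the DNA damage checkpoint, with 82.4% in depleted and 63.3% in control cells, and in RC3H1 (roquin 1, an RNA-binding ubiquitin ligase that represses immune messenger RNAs), with 30.9% and 52.1%. Neither MDC1 (71.0% and 69.8%) nor RC3H1 (53.0% and 49.3%) differed by 4 points or more between unstimulated depleted and control cells. TDRD3, a tudor domain protein, had 52.5% in PMA-treated depleted and 36.8% in PMA-treated control cells, and RNF19B, a ubiquitin ligase, 30.7% and 16.2%. MAP7D3, a microtubule-associated protein, had 97.5% and 85.2%, and WDTC1 had 96.2% and 80.0%. The highest posterior probability among these 6 genes with PMA was 0.482, in MDC1, in the authors' deposited table.

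**Figure D2:**
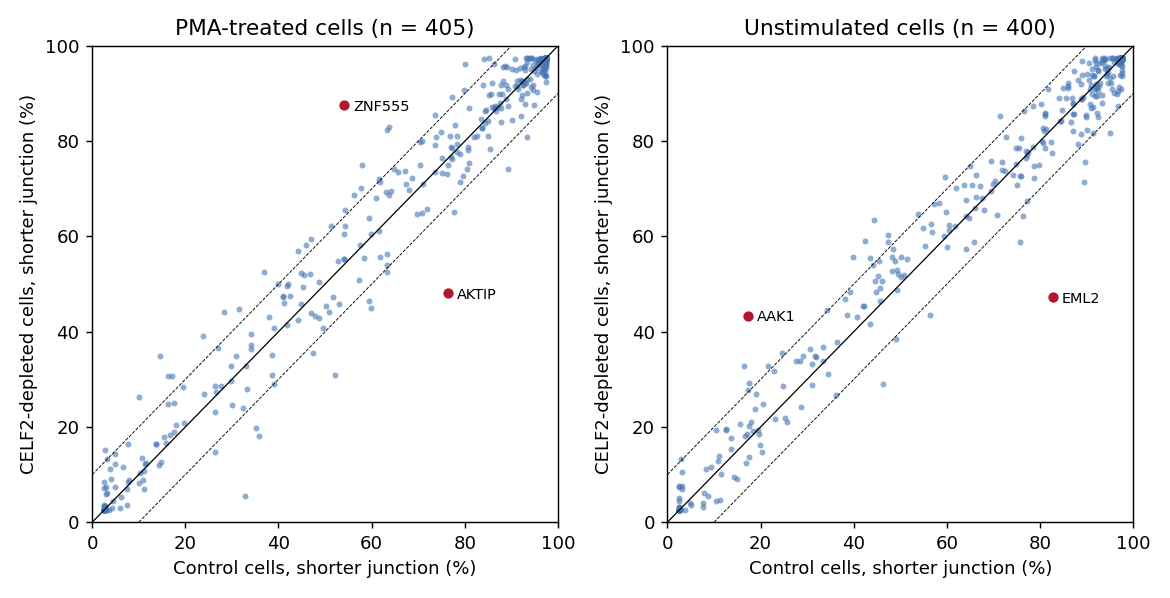
Share of the shorter junction in CELF2-depleted cells (y axis, percent) against control cells (x axis, percent) for each tandem acceptor, with PMA (left, n = 405) and without (right, n = 400). Each point is 1 event, the solid line marks equal shares, the dashed lines a difference of 10 points, and the 2 events with the largest expected change in each state are red and named. Most points lie between the dashed lines, and EML2 at 47.2% and 82.8% is the 1 called event.

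The depletion difference past 10 points recurred with the same sign in both states in 4 of 378 events (1.06%), where 4.24% of all LSVs, 2.38% of LSVs of 2 junctions and 0.634% of two-choice acceptors of other distances did so. The 2 differences share no library. Shares were higher in depleted cells in AAK1 (30.6% and 17.2% with PMA, 43.4% and 17.2% without), in LRRC75A-AS1 (given above) and in USP48 (68.6% and 56.3% with PMA, 72.4% and 59.6% without). In ZFP14, a zinc finger gene, they were lower in depleted cells, at 19.7% against 35.1% with PMA and 29% against 46.2% without. In the authors' deposited tables the posterior probabilities of ZFP14 were 0.149 with PMA and 0.129 without, and those of USP48 0.133 and 0.153. By the authors' expected change 0 events passed 10 points in both states.

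The next events by the smaller of both depletion differences were ZNF431, C11orf68, ZNF30, BRD7, ARMC9 and FAM149A. ZNF30, a zinc finger gene, had 26.3% in PMA-treated depleted and 10% in PMA-treated control cells, and 31.8% and 22.9% in unstimulated depleted and control cells. C11orf68, with CAG at both acceptors, had 18.1% and 35.9% with PMA and 26.7% and 36.1% without. Of these 6 genes the highest posterior probability in the authors' deposited tables was 0.342, for C11orf68 with PMA. Across the 378 events the Pearson correlation of the depletion difference between PMA-treated and unstimulated cells was 0.1. The value is a description that includes events near the ends of the scale, and it was not computed without them.

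The comparison of PMA-treated with unstimulated cells asked whether stimulation shifts the choice of acceptor. The shares differed by at least 10 points with the same sign in depleted and in control cells in 2 of 378 events (0.529%), where 2.67% of all LSVs, 1.41% of LSVs of 2 junctions and 0.731% of two-choice acceptors of other distances did so. EDEM3, a mannosidase of endoplasmic reticulum quality control, had 8.8% with PMA and 19.2% without in depleted cells, and 7.8% with PMA and 18.4% without in control cells. ZNF431, a zinc finger repressor, had 44.7% with PMA and 54.9% without in depleted cells, and 31.5% with PMA and 45.5% without in control cells. Both were lower with PMA in both kinds of cells. Both events contain a de novo junction, and without such events 0 passed. Taking the 2 kinds of cells singly, the difference reached 10 points in 31 events in depleted cells and in 31 in control cells (8.2% each). Of two-choice acceptors of other distances 3.02% reached it in depleted and 3.27% in control cells, and of all LSVs of 2 junctions 5.68% and 6.04%. With opposite signs 0 tandem acceptors passed in both kinds of cells. Of all LSVs 0.96% did so, of LSVs of 2 junctions 0.535% and of two-choice acceptors of other distances 0.195%. The tables were quantified separately, so these are differences of size without a test.

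Other events with the same sign of PMA difference in both kinds of cells came next by the smaller of both differences. ZZZ3, a zinc finger subunit of a histone acetyltransferase complex, had 55.2% with PMA and 70.8% without in depleted cells, and 54.1% with PMA and 63.7% without in control cells. ROCK1, a kinase that activates myosin, had 86.6% and 95.5% in depleted cells and 84.6% and 94.7% in control cells, with and without PMA. CDC25A, a phosphatase that drives the cell cycle, had 50.9% with PMA and 66.0% without in depleted cells, and 57.3% with PMA and 66.0% without in control cells. HCST, the signalling adaptor DAP10 of T and natural killer cells, had 71.1% and 78.0% in depleted cells and 67.4% and 76.9% in control cells, with and without PMA. FAM63B was higher with PMA, at 72.2% against 64.8% in depleted cells and 68.7% against 53.7% in control cells. The correlation of the PMA difference between depleted and control cells over 378 events was 0.141.

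**Figure D3:**
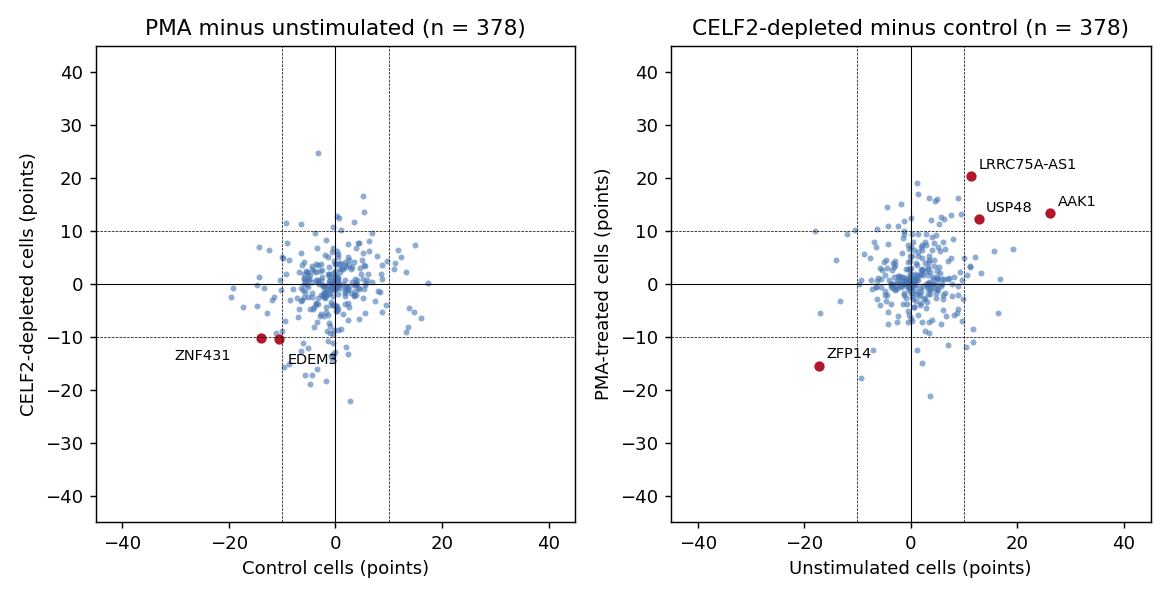
Differences of the share of the shorter junction in percentage points for the 378 tandem acceptors in both tables. Left, PMA-treated minus unstimulated in depleted cells (y axis) and control cells (x axis). Right, depleted minus control in PMA-treated cells (y axis) and unstimulated cells (x axis). Dashed lines mark 10 points, and events past them with the same sign on both axes are red and named, 2 on the left and 4 on the right.

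The use of most tandem acceptors was close between the 4 groups. Over the 378 events the shares of any pair of groups had a Pearson correlation between 0.984 and 0.99, and the range over the 4 groups had a median of 5.0 points and was under 10 points in 291 events (77%). It reached 20 points in 9 events, among them ZFP14, AAK1, EXOC6, ZNF431, PPP1R3F, RC3H1, ZNF30 and LRRC75A-AS1. Events with a mean share between 10% and 90% had a median range of 8.9 points and the others 1.2. Over all events in both tables, the depletion difference reached 10 points in 8.99% of tandem acceptors with PMA and 6.08% without, against 3.8% and 2.88% of two-choice acceptors of other distances and 8.15% and 5.73% of all LSVs of 2 junctions. The order against acceptors of other distances turned round among events with a mean share between 10% and 90% (178 tandem acceptors and 205 others). There the depletion difference reached 10 points in 16.9% of tandem acceptors with PMA and 12.4% without, against 26.3% and 23.9% of two-choice acceptors of other distances and 45.2% and 33.8% of all LSVs of 2 junctions. In the same subset the PMA difference reached 10 points in 15.7% of the tandem acceptors in depleted cells and 14.6% in control cells, against 25.4% and 22.9% of two-choice acceptors of other distances and 31.9% and 35.2% of all LSVs of 2 junctions, where over all events the tandem acceptors were the higher, as given above. Read depth can differ between these classes and is not in the tables, so its part in these shares was not tested.

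Of all 11412 measured genes 404 had a tandem acceptor, and none of the gene lists below was tested against this count. Of 194 measured genes for splicing factors and RNA-binding proteins 15 had a tandem acceptor, with 17 events and a median share of 91.7%, against 85.5% over all events in both tables. None of the 17 was called in either state, and their highest posterior probability was 0.00321 in the authors' deposited tables. Among all tandem acceptors 1 of 400 was called without PMA and 0 of 405 with it. A count of 0 in this list or in those below therefore does not set a list apart. RBFOX2, a splicing regulator, had 42.9% in PMA-treated depleted cells, 48.7% in PMA-treated control cells, 37.8% in unstimulated depleted cells and 36.4% in unstimulated control cells. THRAP3, a nuclear protein that associates with spliced RNA, lay between 59.9% and 61.3% in the 4 groups. FUBP1, which binds single-stranded DNA and RNA, lay between 30.9% and 34.9% at an acceptor with CAG downstream and at 97.5% in all 4 groups at another with GAG. SREK1, an SR-related splicing factor, lay between 74.8% and 80.6%.

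Of 208 measured chromatin and transcription genes 20 had 24 events, with a median share of 77.4% and 0 called in either state. Events near even use were found in CHD7 and CHD9, chromatin remodelling helicases, and in ARID1A, a subunit of SWI/SNF complexes. CHD7 had 45.9% and 53.1% in PMA-treated depleted and control cells, and 49.1% and 45.7% in unstimulated depleted and control cells. ARID1A had 36.3% and 34.0% with PMA, and 48.3% and 39.1% without, in depleted and control cells. SMARCA4, the SWI/SNF ATPase and the 1 gene with an event among 6 measured genes listed for tandem acceptors known from earlier work, stood at 97.5% in all 4 groups, with AAG as its optional triplet. The list was matched by gene name only, and the SMARCA4 event contains a de novo junction. Whether it is the event known from earlier work was not checked.

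Of 208 measured genes of T cell receptor, kinase and GTPase signalling 17 had 18 events, with a median share of 79.7% over the 15 in both tables and 0 called. CD247, the zeta chain of the T cell receptor complex, had 26.9% and 24.1% with PMA, and 33.2% and 31.1% without, in depleted and control cells. PMA-treated minus unstimulated was -6.3 points for CD247 in depleted cells and -7.0 points in control cells. Both differences fell short of the size limit used for the PMA comparison and were not tested. How many other events were lower with PMA in both kinds of cells was not counted. Taking the kinds of cells singly, 21 of the 378 events were lower with PMA by at least 10 points in depleted cells and 10 were higher. In control cells 19 were lower and 12 higher. CSNK1G3, a casein kinase, lay between 33.3% and 39.6%. The highest posterior probability in this list was 0.0617 in the authors' deposited tables.

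Of 223 measured genes of the cytoskeleton, adhesion and membrane traffic 20 had 22 events, with a median share of 82.3% and 0 called. EPN1 (epsin 1, an endocytic adaptor) had the most even use, between 48.7% and 51.9%. MYO9B, an unconventional myosin, lay between 39.0% and 43.0%. SEC24B, a cargo adaptor of COPII vesicles, had 62.3% and 54.3% in PMA-treated depleted and control cells, and 57.3% and 64.2% in unstimulated depleted and control cells. Of 272 measured cell cycle, DNA repair and ubiquitin genes 30 had 31 events, with a median share of 86.2% and 0 called. USP16, a deubiquitinase of histone H2A, had 47.6% and 42.4% with PMA, and 55.5% and 43.5% without, in depleted and control cells. HUWE1, a large ubiquitin ligase, had 43.0% and 38.0% with PMA, and 54.1% and 44.1% without, in depleted and control cells.

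**Figure D4:**
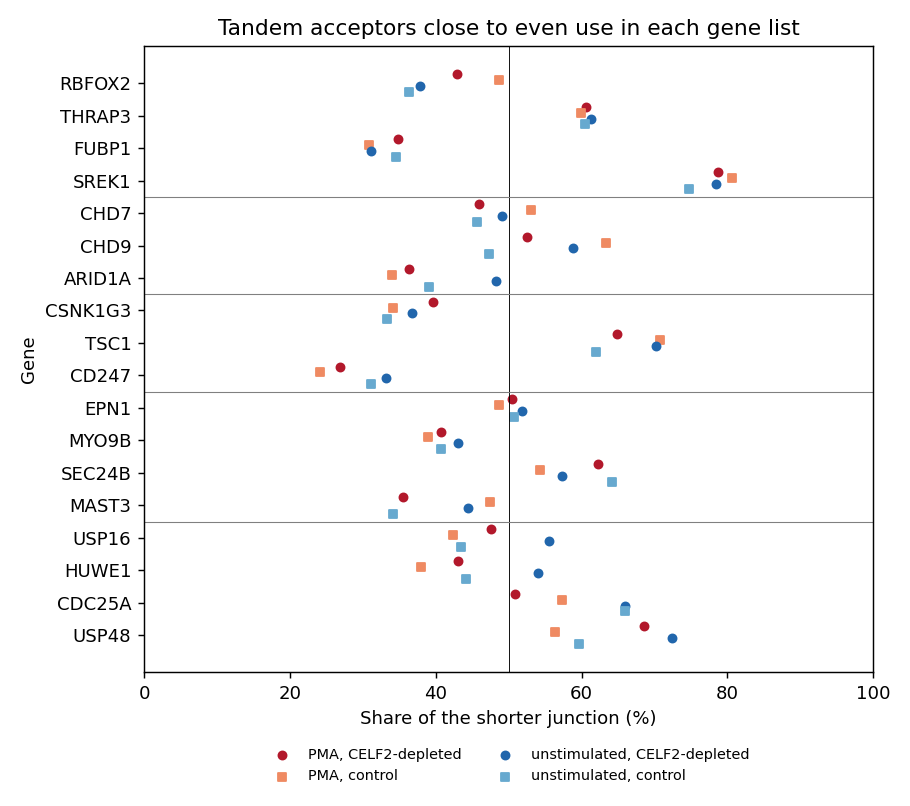
Share of the shorter junction (x axis, percent) in each of the 4 groups for events close to even use in each of 5 gene lists, separated by grey lines (from the top: splicing factors, chromatin, T cell signalling, cytoskeleton and traffic, cell cycle and ubiquitin). Red and orange points are PMA-treated depleted and control cells, dark and light blue points unstimulated depleted and control cells. EPN1 and THRAP3 vary least, between 48.7% and 51.9% and between 59.9% and 61.3%.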

How the data were processed

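Per the labels' protocols, polyadenylated RNA was sequenced from TruSeq stranded libraries. STAR 2.5.1b and the build hg19 appear, without a role, in the submitters' processing notes. The authors deposited 2 tables, 1 per state, with the column names that VOILA gives to results of MAJIQ (version, annotation and read filters not given in the sources used here). Per the file headers they hold junction shares as fractions, posterior probabilities and a score, the expected change (depleted minus control) under the authors' model. Shares are printed as percentages.

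Members were found with Python 3.11.15 and pandas 2.3.3, tested on simulated lines. No fit over libraries was possible, and 0 columns of per-sample values were left unused. Replicates may be technical. The PMA difference was taken between the tables. Members, gene lists and size limits (10 points) were chosen with earlier results of these data known. Named genes are called events, the 10 largest expected changes per state, the 10 largest recurring PMA and depletion differences, the 4 events nearest 50% in each list and every event in a gene of the known list. Some of these are not reported here. MKLN1, KCMF1, TTC26, UCHL5, genes with several events and genes named for their sequences were chosen after their values were seen.

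Events were matched to GENCODE release 29 (GRCh38) by gene ID and intron length, without converting coordinates. Of 427, 410 matched, 206 of them with both acceptors annotated. In 37 events the triplet was read from 2 transcripts, and was equal in 37. RefSeq proteins were not used here. The alternatives changed thresholds, de novo junctions and annotation.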

Additional observations from a re-analysis of the deposited data

Results flagged for a closer look

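In 4 of 378 tandem acceptors (1.06%) the depletion difference reached 10 points in both states with opposite signs, where 0.857% of all LSVs, 0.463% of LSVs of 2 junctions and 0.293% of two-choice acceptors of other distances did so. The values are pooled per group and the difference between states was not tested. In CHD9, a chromatin remodelling helicase, depleted minus control was -10.9 points with PMA (52.5% and 63.4%) and 11.6 without (58.9% and 47.3%). In EXOC6 it was 10 points with PMA (96.2% and 86.2%) and -17.9 without (71.5% and 89.4%). In MAST3, a microtubule-associated kinase, it was -11.9 with PMA (35.5% and 47.4%) and 10.3 without (44.5% and 34.2%). In RAP1GDS1, an exchange factor for small GTPases, it was 10.3 with PMA (50.1% and 39.8%) and -10.5 without (38.5% and 49.0%). The number with opposite signs, 4, equals the number with the same sign in both states. The highest posterior probability among the 4 genes was 0.443, in EXOC6 without PMA, in the authors' deposited table.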

How the results depend on the processing

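The calls rest on a small number of events. Without PMA 1 event was called at a posterior probability of 0.95 or 0.90, and 0 at 0.99, where EML2 with 0.967 was lost. By an expected change of 20 points 3 events passed with PMA, where 0 were called, and 2 without, and by 10 points 11 with PMA and 6 without. Leaving out de novo junctions lowered the median share to 55.5% in PMA-treated depleted cells, 54.2% in PMA-treated control cells, 59.8% in unstimulated depleted cells and 56.8% in unstimulated control cells. It lowered the medians by downstream triplet to 48.0% for CAG, 53.9% for TAG and 91.1% for AAG. With both acceptors annotated CAG had 48.1% and TAG 61.0%. Both of these splits by triplet were chosen after seeing the data. The events past the limit of 10 points in the PMA comparison numbered 23 at 5 points, 0 at 20 points, 0 without de novo junctions and 15 by the mean of both differences. The recurring depletion differences numbered 22 at 5 points, 0 at 20 points and 0 by the expected change. All junction sets were of the source type, so target LSVs alone gave no value. No paired analysis was possible because the authors pooled the libraries of each group, for which reason no library could be left out either. Read depth is unknown, so an event without a call is one in which no change was detectable by the authors' model.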

Other observations

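The 4 highest posterior probabilities of any tandem acceptor, in EML2 without PMA (0.967) and in ZNF555 (0.88), HSPG2 (0.8) and AKTIP (0.788) with PMA in the authors' deposited tables, all belonged to events listed in 1 table only. Of the 27 events in the PMA table alone 3 had an expected change of at least 10 points (11.1%), against 8 of the 378 in both tables (2.12%). Of the 22 in the unstimulated table alone 1 did (4.55%), against 5 of 378 (1.32%). The tables give no read counts, and the sources used here do not say what decides whether an event is listed.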
